A study of Homo sapiens with 12 samples.

Results

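The G1 phase of the cell cycle is governed by a small set of genes, and 10 of them were followed here across 4 groups of 16HBE cells, an immortalised human bronchial epithelial line, in which the Ras, MEK and ERK steps of a kinase cascade had been blocked. They are the D-type cyclins CCND1, CCND2 and CCND3, the E-type cyclin CCNE1, the kinases CDK4 and CDK6, the Cip/Kip inhibitors CDKN1A (p21), CDKN1B (p27) and CDKN1C (p57), and the INK4 inhibitor CDKN2B (p15). Every array probe annotated to 1 of these symbols was taken, whatever its signal, which gave 16 of the 47322 probes on the array for 10 of its 20045 named genes. Of these, 10 were detected on all 12 arrays and 2, a probe of CCNE1 and a probe of CDKN1A, on none. A probe counts as detected where its detection p, its rank among the array's negative controls, was below 0.01, and it entered the tests if every array of 1 group or more detected it. That left 12 probes and 9 of the 10 genes among 10532 genes tested, with CDKN1C outside.

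The groups were cells given the MEK inhibitor GSK1120212 at 500 nM, cells given the ERK inhibitor SCH772984 at 1 uM, cells expressing dominant-negative Ras N17 (DN Ras) from the retroviral vector pQCXIP, and control cells given the solvent DMSO. The inhibitor and control cells carried the empty pQCXIP vector and were exposed for 4 days, so all 4 groups had been stably infected. For the DN Ras cells the labels give neither a solvent nor a time, and for no group do they say whether a line was a clone or a pool. Each group had 3 samples, 1 from each of 3 independent experiments. The replicate spread behind the p-values is therefore that of repeated experiments in 1 line of cells.

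As background, growth signals that pass from Ras through RAF, MEK and ERK raise transcription of cyclin D1. D-type cyclins bind CDK4 or CDK6, cyclin E binds CDK2, and both kinds of complex phosphorylate the retinoblastoma protein, which frees E2F factors to switch on genes of DNA replication. INK4 inhibitors such as p15 bind CDK4 and CDK6 and keep D cyclins off them, whereas p21, p27 and p57 bind whole cyclin-CDK complexes. p21 and p27 also help D cyclins assemble with their kinases, and p21 is a known target of p53 as well as of growth signalling, so its transcript is not a plain gauge of arrest. CDKN2B is known for its induction by TGF-beta in epithelial cells. These routes are given as general background, and whether the retinoblastoma protein and p53 act in this immortalised line was not tested.

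Promoters of 4 genes are shown because those genes gave the different responses described below: CCNE1 and CDKN1A transcripts fell with the MEK inhibitor, CDKN2B rose with the MEK inhibitor and with DN Ras, and CDK4 passed no test. Each is the 250 bases before the RefSeq start site of the gene (GRCh38.p14), read 5' to 3' on the gene's strand, and lies outside the transcript. They are CCNE1 at chr19:29811741-29811990 on the plus strand, CDK4 at chr12:57752311-57752560 on the minus strand, CDKN1A at chr6:36678464-36678713 on the plus strand and CDKN2B at chr9:22009306-22009555 on the minus strand. Capitals mark a match on either strand to any of 8 motifs: AP-1 (TGANTCA), CRE (TGACGTCA), ETS (CCGGAAG), E2F (TTTNNCGC), EGR1 (GCGNGGGCG), the E-box bound by MYC (CACGTG), FOXO (GTAAACA) and SP1 (GGGCGG).
CCNE1: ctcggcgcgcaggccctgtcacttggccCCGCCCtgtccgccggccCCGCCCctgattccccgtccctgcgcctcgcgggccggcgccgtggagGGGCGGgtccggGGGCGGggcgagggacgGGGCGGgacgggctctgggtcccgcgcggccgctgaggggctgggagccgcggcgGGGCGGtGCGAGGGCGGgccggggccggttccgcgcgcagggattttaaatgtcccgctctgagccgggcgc
CDK4: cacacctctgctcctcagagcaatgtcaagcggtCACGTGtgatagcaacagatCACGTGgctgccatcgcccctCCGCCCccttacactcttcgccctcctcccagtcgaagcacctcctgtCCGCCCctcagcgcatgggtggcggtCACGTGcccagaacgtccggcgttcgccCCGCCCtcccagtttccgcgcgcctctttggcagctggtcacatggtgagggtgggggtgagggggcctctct
CDKN1A: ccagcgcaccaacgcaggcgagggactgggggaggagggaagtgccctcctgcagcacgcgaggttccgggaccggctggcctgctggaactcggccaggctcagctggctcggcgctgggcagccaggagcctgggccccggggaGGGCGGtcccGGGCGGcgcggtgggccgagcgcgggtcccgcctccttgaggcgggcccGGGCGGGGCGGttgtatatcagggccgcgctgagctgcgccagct
CDKN2B: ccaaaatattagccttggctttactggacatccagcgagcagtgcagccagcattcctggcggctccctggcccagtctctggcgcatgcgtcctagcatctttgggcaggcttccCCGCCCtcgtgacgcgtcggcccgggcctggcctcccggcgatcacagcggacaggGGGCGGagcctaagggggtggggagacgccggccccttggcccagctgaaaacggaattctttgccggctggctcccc

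Promoter entries were found for 7 of the 10 genes, with 10 promoters in all. There were 3 for CCND3, 2 for CDK6 and 1 each for CCNE1, CDK4, CDKN1A, CDKN1B and CDKN2B. CCND1, CCND2 and CDKN1C had no entry, so their promoters were not searched for any motif. The SP1 letters occurred in 8 of the 10 promoters and in at least 1 promoter of each of the 7 genes, against 42.6% of 35116 promoters of the same length, and were the only match in CDKN1A, CDKN1B and CDKN2B. The EGR1 letters occurred in 3 of the 10 promoters, 1 each of CCND3, CCNE1 and CDK6, against 8.41% of promoters, and the match in CCNE1, at -65 from the start site, overlaps an SP1 match at -61. CDK4 carried 3 copies of the E-box, at -216, -196 and -101, a motif found in 6.34% of promoters. An ETS match occurred in 1 promoter, of CCND3, against 8.52%. No match to the AP-1, CRE, E2F or FOXO letters, found in 6.57%, 1.65%, 5.92% and 2.98% of promoters, occurred in the 10. A match describes the letters in this window and says nothing of binding.

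The arrays were alike in quality, with 16825 to 18295 probes detected on each and every correlation within a group at 0.978 or above. Replicate 3 of the DN Ras group stood apart: on it 85 genes differed by 2-fold or more from each of the 2 remaining DN Ras arrays in 1 direction, where the same count on the other arrays was 0 to 22, and the members' DN Ras results are given with and without it. All 9 listed transcripts that report ERK output, such as the phosphatase gene DUSP6, fell with the MEK inhibitor and with DN Ras, where 8.86% and 6.45% of all genes fell. With the ERK inhibitor 8 of 9 fell, against 5.48% of all genes, the exception being SPRY2 at -0.23 on the log2 scale (adjusted p = 0.278). When arrays were brought to a common median instead, 7 of 9 fell with the ERK inhibitor. The median log2 changes of the 9 were -2.12 with the MEK inhibitor, -1.48 with the ERK inhibitor and -1.67 with DN Ras. The Ras gene measured, HRAS, averaged 8.99 log2 units in DN Ras cells and 8.73 in controls (adjusted p = 0.226), and the labels do not name the Ras gene that was mutated. All 6 epithelial markers, EPCAM, CDH1, KRT5, KRT8, KRT18 and KRT19, were detected on every array. Their summed deposited intensity was 9591 to 11774 with the MEK inhibitor, 14440 to 15373 with the ERK inhibitor, 10322 to 13561 in DN Ras cells and 14123 to 15401 in controls. Such sums are neither background-corrected nor normalized, so the brightness of each array enters them. In the normalized values, members of the list moved both ways. KRT8, KRT18 and KRT19 fell with the MEK inhibitor, CDH1 rose and KRT18 fell with the ERK inhibitor, and KRT5 rose and KRT8 and KRT18 fell with DN Ras, where KRT18 alone was called without replicate 3. Of 7 fibroblast markers, COL1A1 was detected in every group and rose in all 3 inhibited groups, and LUM was detected on all arrays of the MEK inhibitor group alone. The summed deposited intensity of those 7, again not normalized, was 627 to 745 with the MEK inhibitor, 677 to 686 with the ERK inhibitor, 594 to 663 in DN Ras cells and 585 to 640 in controls, and COL3A1, DCN and PDGFRA were detected nowhere. No endothelial marker of 5 passed the filter, and of 5 leukocyte markers CD14 and CD68 were detected while PTPRC, CD3D and LYZ were not. The part of these markers in the results was not tested.

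Against control, 7 of the 9 measured genes changed with the MEK inhibitor, where 16% of all genes did. CDK6 and CDKN2B rose, where 7.11% of all genes did, and CCND1, CCND2, CCND3, CCNE1 and CDKN1A fell, where 8.86% did. With the ERK inhibitor 2 of 9 changed, CDK6 upward and CCND2 downward, against 11.4% of all genes (5.92% upward and 5.48% downward). With DN Ras 3 of 9 changed, CDKN2B upward and CCND1 and CCND2 downward, against 12.3% (5.81% upward and 6.45% downward). The median log2 difference over the 9 genes was -0.49 with the MEK inhibitor, 0.00 with the ERK inhibitor and -0.30 with DN Ras, while that of all genes lay between -0.01 and 0.01. These counts rest on limma's moderated test with Benjamini-Hochberg adjustment over all 10532 genes and a threshold of 0.05. The members, and the further gene lists below, were chosen with earlier results of these data known. Their shares, here and below, are set beside those of all genes as a description and are no test of the set. The 3 comparisons share the control arrays. In RNA from whole cultures, fewer cells that express a gene and less RNA per cell cannot be told apart.

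**Figure D1:**
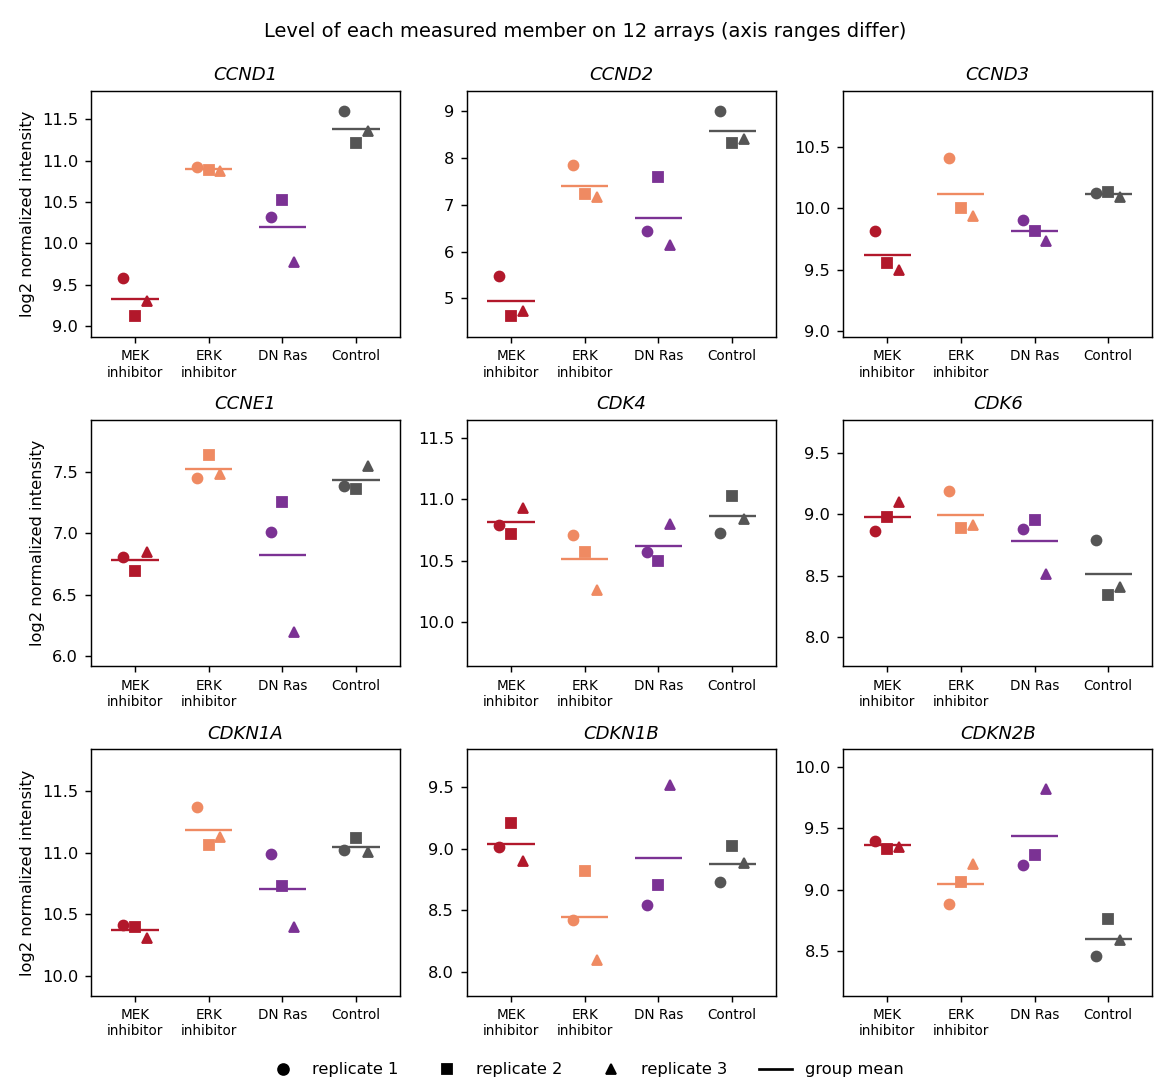
Normalized log2 intensity of the 9 measured genes on each of the 12 arrays, in panels with axes of different range; each point is 1 array, its shape gives the replicate number and the bar is the group mean. CCND1 and CCND2 are lowest on the MEK inhibitor arrays and highest on the control arrays, CDKN1A lies at 10.31 to 10.41 with the MEK inhibitor and at 11.01 to 11.12 in controls, and CDKN2B is lowest in controls.

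CCND1 encodes cyclin D1, the D cyclin most closely tied to ERK signalling. Its deposited intensity was 655.0, 529.7 and 801.1 with the MEK inhibitor, 2242.5, 2239.6 and 2106.2 with the ERK inhibitor, 1389.2, 1354.0 and 734.6 in DN Ras cells and 3200.6, 2550.6 and 2976.0 in controls. On the normalized log2 scale the values were 9.58, 9.12 and 9.30 with the MEK inhibitor, 10.93, 10.89 and 10.88 with the ERK inhibitor, 10.32, 10.52 and 9.77 in DN Ras cells and 11.60, 11.21 and 11.36 in controls. No 2 groups overlapped, and the order from low to high was MEK inhibitor, DN Ras, ERK inhibitor, control. The MEK inhibitor lowered CCND1 by 4.17-fold (log2 difference -2.06 ± 0.17 SE, adjusted p = 8.68e-07). DN Ras cells had 2.29-fold less than controls (-1.19 ± 0.17, adjusted p = 0.000394), and -0.98 without DN Ras replicate 3 (adjusted p = 0.000657). The ERK inhibitor gave -0.49 ± 0.17 with a 95% interval of -0.86 to -0.12, which did not pass after adjustment (adjusted p = 0.0801), although its arrays did not overlap the controls. Without DN Ras replicate 3, which enters through the shared spread, the same -0.49 passed (adjusted p = 0.0232).

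CCND2, cyclin D2, showed the largest differences of the 9 genes against control in each of the 3 inhibited groups. It has 2 kept probes, and the brighter one stands for the gene. On that probe the intensity was 100, 87.0 and 96.5 with the MEK inhibitor, 326.3, 245.4 and 236.5 with the ERK inhibitor, 156.5, 235.7 and 121.8 in DN Ras cells and 540.6, 390.4 and 445.3 in controls. The transcript was detected on 1 of 3 MEK inhibitor arrays and on all 9 others, so its level under MEK inhibition lay at the edge of detection. The normalized log2 values were 5.47, 4.62 and 4.74 with the MEK inhibitor, 7.84, 7.23 and 7.16 with the ERK inhibitor, 6.43, 7.60 and 6.13 in DN Ras cells and 9.0, 8.31 and 8.41 in controls. Every inhibited group lay below the controls without overlap, and the DN Ras and ERK inhibitor arrays overlapped each other. The log2 difference from control was -3.63 ± 0.32 with the MEK inhibitor (adjusted p = 1.23e-06), a 12.4-fold fall whose size depends on the treatment of background: it was -2.20 with no background correction and -4.23 in the authors' processed values. With the ERK inhibitor CCND2 fell by 2.24-fold (-1.16 ± 0.32, adjusted p = 0.0286), a call that was lost in the authors' processed values (adjusted p = 0.0722), without the filter on dim probes (0.0941), and without ERK inhibitor replicate 2 or 3 or control replicate 1 or 3 (up to 0.128). In DN Ras cells it fell by 3.62-fold (-1.85 ± 0.32, adjusted p = 0.00154), and by -1.56 without replicate 3 (adjusted p = 0.00544).

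The second CCND2 probe read 4.96, 4.78 and 4.60 with the MEK inhibitor, 6.20, 5.40 and 5.58 with the ERK inhibitor, 5.39, 5.48 and 5.10 in DN Ras cells and 7.19, 6.40 and 6.39 in controls. This probe was dim, with an intensity of 89.8 to 93.4 with the MEK inhibitor, where 1 of 3 arrays detected it. Its intensity was 93.8 to 109 in DN Ras cells and 152.2 to 199 in controls, so the size of its differences is limited by background. The probe gave the same direction and the same calls against control, with smaller differences: -1.88 with the MEK inhibitor (adjusted p = 2.44e-05), -0.94 with the ERK inhibitor (adjusted p = 0.0135) and -1.34 with DN Ras (adjusted p = 0.00104), or -1.23 without replicate 3 (adjusted p = 0.00425). These adjusted p-values come from the limma fit of 13885 single probes, in which 14.9% were called with the MEK inhibitor, 10% with the ERK inhibitor and 10.9% with DN Ras.

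CCND3, cyclin D3, moved far less. Its log2 values were 9.81, 9.55 and 9.50 with the MEK inhibitor, 10.41, 10 and 9.94 with the ERK inhibitor, 9.90, 9.81 and 9.73 in DN Ras cells and 10.12, 10.13 and 10.09 in controls. The controls were tightly grouped, the MEK inhibitor and DN Ras arrays lay below them, and the ERK inhibitor arrays lay on both sides. It fell 1.41-fold with the MEK inhibitor (-0.49 ± 0.13, adjusted p = 0.019). That call was lost when MEK inhibitor replicate 2 or 3 or any single control array was left out, with adjusted p up to 0.0845. DN Ras gave -0.30 ± 0.13 (adjusted p = 0.158), or -0.26 without replicate 3 (adjusted p = 0.302), and the ERK inhibitor 0.00 ± 0.13, with a 95% interval of -0.28 to 0.29.

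CCNE1, cyclin E1, is the partner of CDK2 and is itself a gene that E2F factors switch on. Its log2 values were 6.81, 6.69 and 6.85 with the MEK inhibitor, 7.45, 7.64 and 7.48 with the ERK inhibitor, 7.01, 7.25 and 6.20 in DN Ras cells and 7.38, 7.36 and 7.55 in controls. The MEK inhibitor and DN Ras arrays lay wholly below the controls, and DN Ras replicate 3 was the lowest of all 12. CCNE1 fell 1.57-fold with the MEK inhibitor (-0.65 ± 0.20, adjusted p = 0.034), a call lost when any MEK inhibitor or control array was left out, when the authors' values were used (adjusted p = 0.0698) or without the filter (adjusted p = 0.087). DN Ras gave a similar -0.61 ± 0.20 that just missed the threshold (adjusted p = 0.053), and -0.30 without replicate 3 (adjusted p = 0.166). That difference passed without DN Ras replicate 1 (adjusted p = 0.0418) or 2 (adjusted p = 0.0126). The ERK inhibitor gave 0.09 ± 0.20, with an interval of -0.32 to 0.51.

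Transcripts of the 2 kinases moved little. CDK4 had log2 values of 10.79, 10.72 and 10.93 with the MEK inhibitor, 10.71, 10.57 and 10.26 with the ERK inhibitor, 10.57, 10.50 and 10.80 in DN Ras cells and 10.73, 11.03 and 10.84 in controls. Only the ERK inhibitor arrays lay wholly below the controls, and no comparison of CDK4 passed. Its differences from control were -0.05 ± 0.14 with the MEK inhibitor (95% interval -0.35 to 0.24), -0.35 ± 0.14 with the ERK inhibitor (-0.65 to -0.06, adjusted p = 0.11) and -0.24 ± 0.14 with DN Ras (-0.54 to 0.05), or -0.33 without replicate 3 (adjusted p = 0.172). CDK6 had 8.86, 8.98 and 9.10 with the MEK inhibitor, 9.19, 8.89 and 8.91 with the ERK inhibitor, 8.88, 8.95 and 8.51 in DN Ras cells and 8.79, 8.34 and 8.41 in controls. Both inhibitor groups lay above the controls and the DN Ras arrays overlapped them. CDK6 rose 1.38-fold with the MEK inhibitor (0.47 ± 0.15, adjusted p = 0.0453) and 1.40-fold with the ERK inhibitor (0.48 ± 0.15, adjusted p = 0.0489). Both calls sit at the threshold: the first was lost without any MEK inhibitor array, ERK inhibitor replicate 2 or 3, or control replicate 2 or 3 (adjusted p up to 0.16), the second without any array of either inhibitor or control replicate 2 or 3 (up to 0.166), and neither held in the authors' processed values (adjusted p = 0.0637 and 0.0668) or without the filter on dim probes. Under median scaling, in which arrays are brought to a common median in place of a common distribution, the first was 0.33 (adjusted p = 0.37). DN Ras gave 0.27 ± 0.15 (adjusted p = 0.268), or 0.40 without replicate 3 (adjusted p = 0.105), and the moderated F-test over the 4 groups did not pass for CDK6 (adjusted p = 0.0638).

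**Figure D2:**
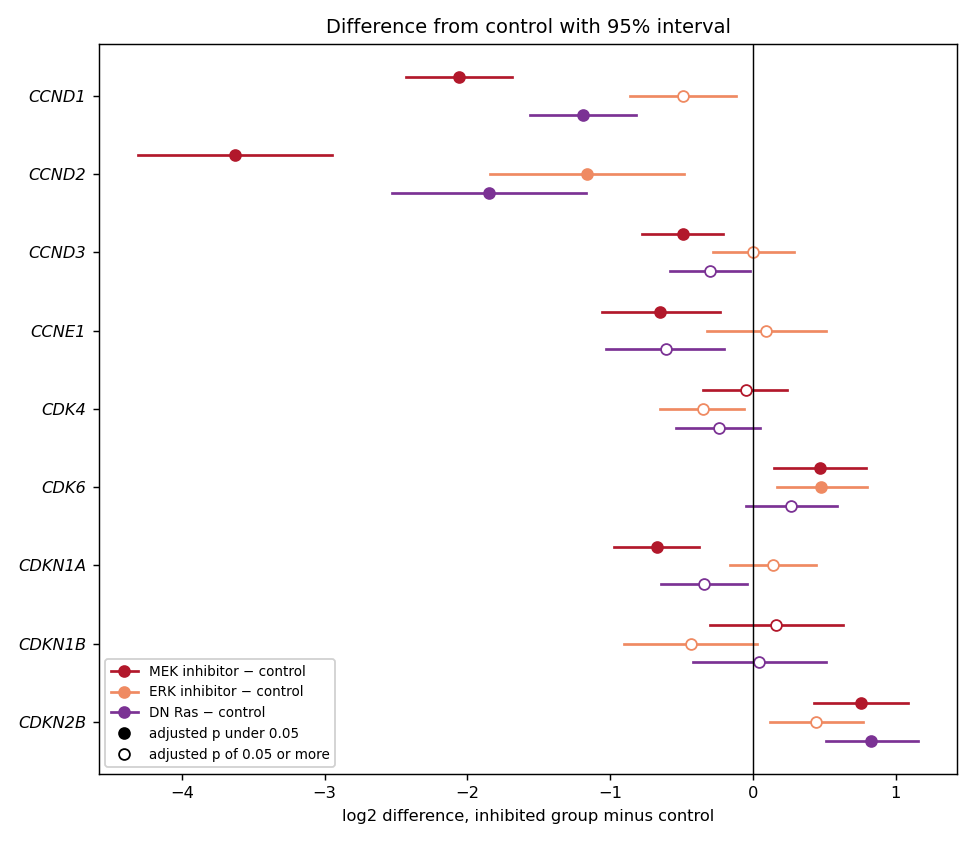
Log2 difference from control of each measured gene for the MEK inhibitor, the ERK inhibitor and DN Ras, with the 95% interval of limma's moderated fit; filled points have an adjusted p under 0.05. The intervals of CCND1 and CCND2 lie below 0 in all 3 groups, from -3.63 for CCND2 with the MEK inhibitor to -0.49 for CCND1 with the ERK inhibitor, and those of CDKN2B lie above 0.

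Among the inhibitors, CDKN1A fell rather than rose under MEK inhibition. Its log2 values were 10.41, 10.40 and 10.31 with the MEK inhibitor, 11.37, 11.06 and 11.13 with the ERK inhibitor, 10.99, 10.73 and 10.40 in DN Ras cells and 11.02, 11.12 and 11.01 in controls. The MEK inhibitor arrays were tightly grouped and all below the controls, the DN Ras arrays were spread between the 2, and the ERK inhibitor arrays reached above the controls. CDKN1A fell 1.60-fold with the MEK inhibitor (-0.67 ± 0.14, adjusted p = 0.00362), and this held in each of 21 alternatives (adjusted p 0.000629 to 0.0201). DN Ras gave -0.34 ± 0.14 (adjusted p = 0.124), or -0.19 without replicate 3 (adjusted p = 0.407), and passed without replicate 1 (adjusted p = 0.0292). The ERK inhibitor gave 0.14 ± 0.14, with an interval of -0.16 to 0.44.

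CDKN1B, p27, passed no test. The probe that stands for it read 9.01, 9.21 and 8.90 with the MEK inhibitor, 8.42, 8.82 and 8.09 with the ERK inhibitor, 8.54, 8.70 and 9.52 in DN Ras cells and 8.73, 9.02 and 8.88 in controls. All 3 inhibited groups overlapped the controls, and DN Ras replicate 3 was the highest of the 12 arrays. The differences from control were 0.16 ± 0.22 with the MEK inhibitor (95% interval -0.30 to 0.63), -0.43 ± 0.22 with the ERK inhibitor (-0.90 to 0.03) and 0.04 ± 0.22 with DN Ras (-0.42 to 0.51), the last becoming -0.25 without replicate 3 (adjusted p = 0.406). A second probe read 7.84, 8.13 and 8.0 with the MEK inhibitor, 7.44, 7.71 and 7.62 with the ERK inhibitor, 7.42, 7.68 and 8.34 in DN Ras cells and 7.44, 7.58 and 7.58 in controls. It gave 0.45 (adjusted p = 0.107) with the MEK inhibitor, 0.06 (adjusted p = 0.884) with the ERK inhibitor and 0.28 (adjusted p = 0.354) with DN Ras, or 0.01 without replicate 3 (adjusted p = 0.963). The 2 probes thus differed in sign for the ERK inhibitor, with neither value called.

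CDKN1C, p57, was detected on 2 of 12 arrays, replicates 1 and 2 of the ERK inhibitor group. Its log2 values were 4.25, 4.47 and 4.70 with the MEK inhibitor, 4.97, 4.91 and 4.68 with the ERK inhibitor, 4.63, 4.64 and 4.46 in DN Ras cells and 4.69, 4.46 and 4.54 in controls. These lie near the array background, where no difference can be read, and the gene was not tested. Its probe was not well above background, which does not show that the transcript was absent.

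CDKN2B was the inhibitor gene whose transcript rose. The probe that stands for it read 9.40, 9.33 and 9.35 with the MEK inhibitor, 8.88, 9.06 and 9.21 with the ERK inhibitor, 9.20, 9.28 and 9.82 in DN Ras cells and 8.46, 8.76 and 8.59 in controls. Every array of the 3 inhibited groups lay above every control array. The transcript rose 1.69-fold with the MEK inhibitor (0.76 ± 0.15, adjusted p = 0.00297) and 1.78-fold in DN Ras cells (0.83 ± 0.15, adjusted p = 0.00246), with 0.64 in DN Ras cells without replicate 3 (adjusted p = 0.00625). The ERK inhibitor gave 0.44 ± 0.15 (95% interval 0.12 to 0.77), which did not pass (adjusted p = 0.0734) except without DN Ras replicate 3 (0.0199), with only the 2 groups fitted (0.0375) or with a gene's probes averaged (0.60, 0.0318). A second kept probe, annotated to another CDKN2B transcript, read 7.61, 8.13 and 8.10 with the MEK inhibitor, 7.39, 7.82 and 8.01 with the ERK inhibitor, 7.41, 7.58 and 8.09 in DN Ras cells and 6.75, 7.11 and 7.11 in controls. On it all 3 inhibited groups again lay above the controls, and all 3 passed: 0.96 with the MEK inhibitor (adjusted p = 0.00378), 0.75 with the ERK inhibitor (adjusted p = 0.0253) and 0.70 with DN Ras (adjusted p = 0.0332). Without DN Ras replicate 3 the last was 0.51 and did not pass (adjusted p = 0.122). The call for the ERK inhibitor therefore differs between probes. The remaining CDKN2B probe was detected on 5 arrays, 2 of the MEK inhibitor, 1 of the ERK inhibitor and 2 of the DN Ras group, and was not tested.

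**Figure D3:**
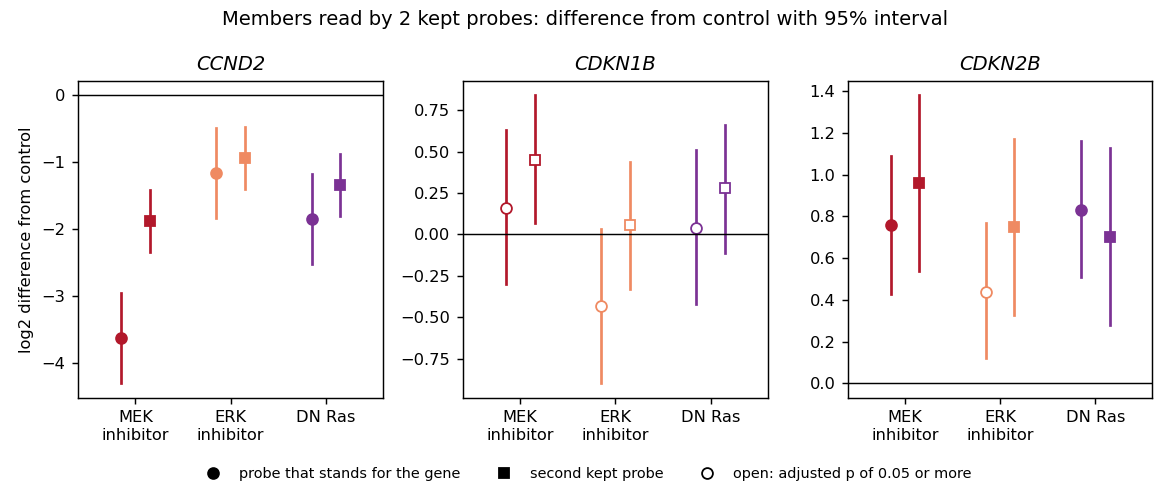
Log2 difference from control, with 95% interval, on each kept probe of CCND2, CDKN1B and CDKN2B; circles are the probe that stands for the gene, squares the second kept probe, and open symbols have an adjusted p of 0.05 or more. Both CCND2 probes lie below 0 and both CDKN2B probes above 0 in the 3 groups, while for CDKN1B with the ERK inhibitor they lie at -0.43 and 0.06.

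Without overlap between the arrays of the 2 groups were 7 of 9 genes for the MEK inhibitor against control, 5 for the ERK inhibitor and 6 for DN Ras, where 37.7%, 33.8% and 30.6% of all genes did not overlap. The moderated F-test found 6 of 9 to differ among the 4 groups, against 25.5% of all genes: CCND1 (adjusted p = 3.41e-06), CCND2 (7.2e-06), CDKN1A (0.00204), CDKN2B (0.00319), CCNE1 (0.0135) and CCND3 (0.0241). CDK4, CDK6 and CDKN1B did not pass.

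The inhibited groups were also set against each other. Of the 9 genes, 5 were lower with the MEK inhibitor than with the ERK inhibitor and none was higher, where 10.2% of all genes were called, 6.69% lower and 3.52% higher. They were CCND1 (-1.57 ± 0.17, adjusted p = 2.77e-05), CCND2 (-2.47 ± 0.32, adjusted p = 0.000123), CDKN1A (-0.82 ± 0.14, adjusted p = 0.00131), CCNE1 (-0.74 ± 0.20, adjusted p = 0.0246) and CCND3 (-0.50 ± 0.13, adjusted p = 0.0269). The arrays of the 2 groups did not overlap for 8 of 9 genes, CDK6 being the exception, against 31.4% of all genes. CCNE1 and CCND3 lost this call when single arrays were left out, CCNE1 for any MEK or ERK inhibitor array and CCND3 for MEK inhibitor replicates 2 and 3 and ERK inhibitor replicate 1. Without DN Ras replicate 3, CDKN1B was called higher with the MEK inhibitor, at 0.60 (adjusted p = 0.0189). The drugs were used at 1 dose and 1 time each, so these differences compare the treatments as given. At those doses 5 of the 9 ERK output genes were also lower with the MEK inhibitor and 4 were not called. Their log2 differences ran from -1.70 to 0.03, with a median of -1.22. Whether this bears on the members was not tested.

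DN Ras cells had more CCND1 and CCND2 than cells with the MEK inhibitor, by 0.87 ± 0.17 (adjusted p = 0.0106) and 1.78 ± 0.32 (adjusted p = 0.00544), or 1.09 and 2.07 without replicate 3 (adjusted p = 0.000411 and 0.000911), where 4.4% of all genes were called, with 2.49% higher. Those 2 genes were also the only members without overlap, against 21.3% of all genes. The CCND1 call was lost when MEK inhibitor replicate 2 or 3 or DN Ras replicate 2 was left out (adjusted p up to 0.0656). On the second CCND2 probe the difference was 0.54 and did not pass (adjusted p = 0.192), where 3.72% of single probes were called. That probe was detected on 1 of 3 MEK inhibitor arrays. Without DN Ras replicate 3 CDKN1A passed too, at 0.49 (adjusted p = 0.0342).

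Against the ERK inhibitor, DN Ras cells had less CCND1 (-0.70 ± 0.17, adjusted p = 0.0185), CCNE1 (-0.70 ± 0.20, adjusted p = 0.0311) and CDKN1A (-0.48 ± 0.14, adjusted p = 0.0373), 3 of 9 where 10.9% of all genes were called and 6.09% were lower. Arrays did not overlap for those 3 and for CCND3, against 27.5% of all genes. None of the 3 calls held without DN Ras replicate 3, at -0.48 for CCND1 (adjusted p = 0.0674), -0.39 for CCNE1 (adjusted p = 0.0809) and -0.33 for CDKN1A (adjusted p = 0.148), and none held when any single ERK inhibitor array was left out. Leaving out DN Ras replicate 2 ended the CDKN1A call and made CCND2 pass at -1.13 (adjusted p = 0.019), and leaving out DN Ras replicate 1 made CDKN2B pass at 0.51 (adjusted p = 0.0492). Ordered by level, the groups ran MEK inhibitor, DN Ras, control, ERK inhibitor for CCND3, CCNE1 and CDKN1A. For these 3 genes no neighbouring pair in that order passed limma's adjusted threshold, although DN Ras and control, neighbours in that order, did not overlap for any of them. For CCND1 each neighbouring pair passed except the ERK inhibitor and control, which did not overlap, and for CCND2 each except DN Ras and the ERK inhibitor, which did. The order from low to high was control, ERK inhibitor, MEK inhibitor, DN Ras for CDKN2B and control, DN Ras, MEK inhibitor, ERK inhibitor for CDK6. For CDK4 it was ERK inhibitor, DN Ras, MEK inhibitor, control and for CDKN1B ERK inhibitor, control, DN Ras, MEK inhibitor. For none of these 4 genes did neighbours pass the adjusted threshold, although for CDKN2B the ERK inhibitor arrays overlapped neither the control nor the MEK inhibitor arrays.

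**Figure D4:**
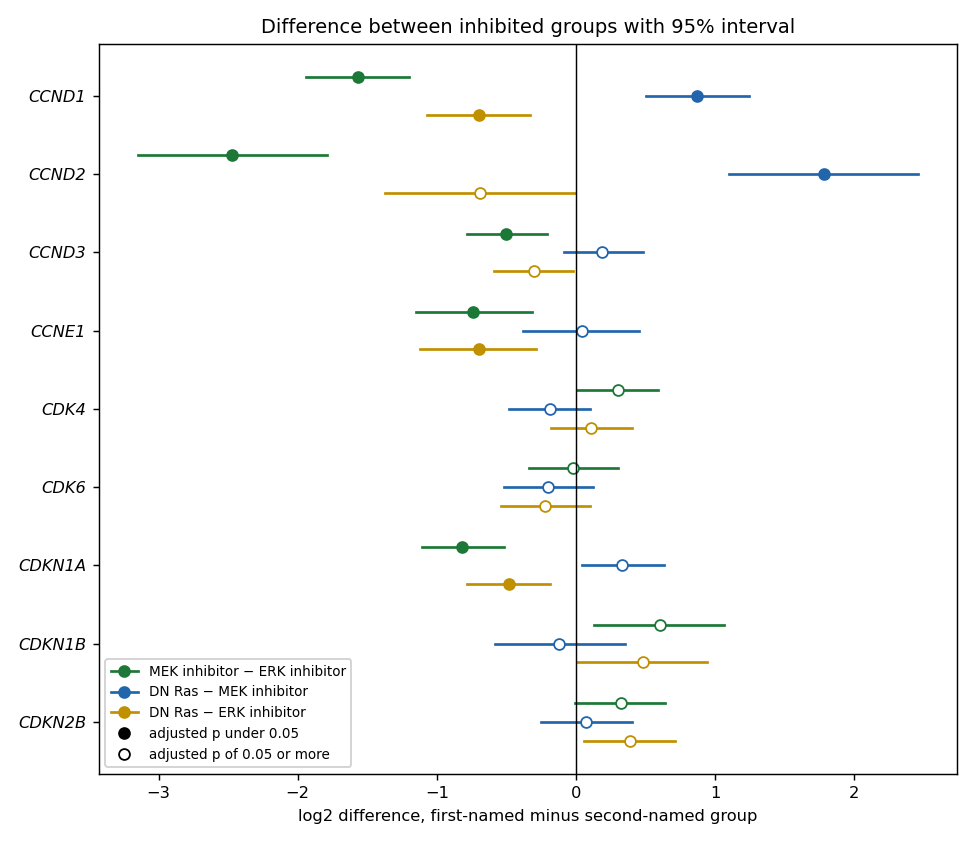
Log2 difference between inhibited groups for each measured gene, first-named minus second-named, with the 95% interval of limma's moderated fit; filled points have an adjusted p under 0.05. CCND1 and CCND2 lie at -1.57 and -2.47 for the MEK inhibitor against the ERK inhibitor and at 0.87 and 1.78 for DN Ras against the MEK inhibitor, and CDK4, CDK6, CDKN1B and CDKN2B have no filled point.

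The partners of these genes were followed through a list of 27 G1/S genes (CDK2, RB1, the E2F family, SKP2, FBXW7 and others), of which 25 were measured. With the MEK inhibitor 1 rose and 2 fell: SKP2, which directs p27 to destruction, rose by 0.60 (adjusted p = 0.00605), E2F6 fell by 0.43 (adjusted p = 0.013) and E2F5 fell by 0.47 (adjusted p = 0.046). With the ERK inhibitor FBXW7, which directs cyclin E to destruction, rose by 0.43 (adjusted p = 0.0318) and nothing fell. With DN Ras E2F4 fell by 0.43 (adjusted p = 0.015, and 0.0319 without replicate 3) and nothing rose. The share called was 12% with the MEK inhibitor, 4% with the ERK inhibitor and 4% with DN Ras, each below that of all genes. The list medians were 0.08 with the MEK inhibitor, 0.01 with the ERK inhibitor and 0.12 with DN Ras. Under median scaling no gene of the list rose, and 1 fell with the MEK inhibitor, 0 with the ERK inhibitor and 1 with DN Ras. All 25 had a 95% interval within a 2-fold change in each of the 3 comparisons.

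Of 26 E2F target genes of DNA replication, among them the MCM helicase subunits, PCNA and CCNA2, 24 were measured. By limma's test none changed with the MEK inhibitor (2 of 24 had an unadjusted p under 0.05) and none with the ERK inhibitor (3 of 24 unadjusted). Of all genes, 16% and 11.4% were called in these comparisons. In DN Ras cells CDC6 (-0.49, adjusted p = 0.0292) and MCM6 (-0.41, adjusted p = 0.0454) fell, and neither was called without replicate 3 or under median scaling. The share called with DN Ras was 8.33%, below the 12.3% of all genes. Whether the retinoblastoma protein restrains E2F factors in this line was not tested, so an intact route is not assumed for these genes. The list medians were 0.00 with the MEK inhibitor, -0.06 with the ERK inhibitor and 0.00 with DN Ras, and all 24 intervals lay within a 2-fold change. Of 15 mitosis genes, 3 rose with the MEK inhibitor, 20% against 7.11% of all genes higher and 16% called in either direction: CENPA by 0.46 (adjusted p = 0.00912), CCNB2 by 0.42 (adjusted p = 0.0202) and CENPF by 0.62 (adjusted p = 0.0299), and under median scaling no gene of the list was called. None was called with the ERK inhibitor (2 unadjusted) or with DN Ras (3 unadjusted), where 11.4% and 12.3% of all genes were.

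**Figure D5:**
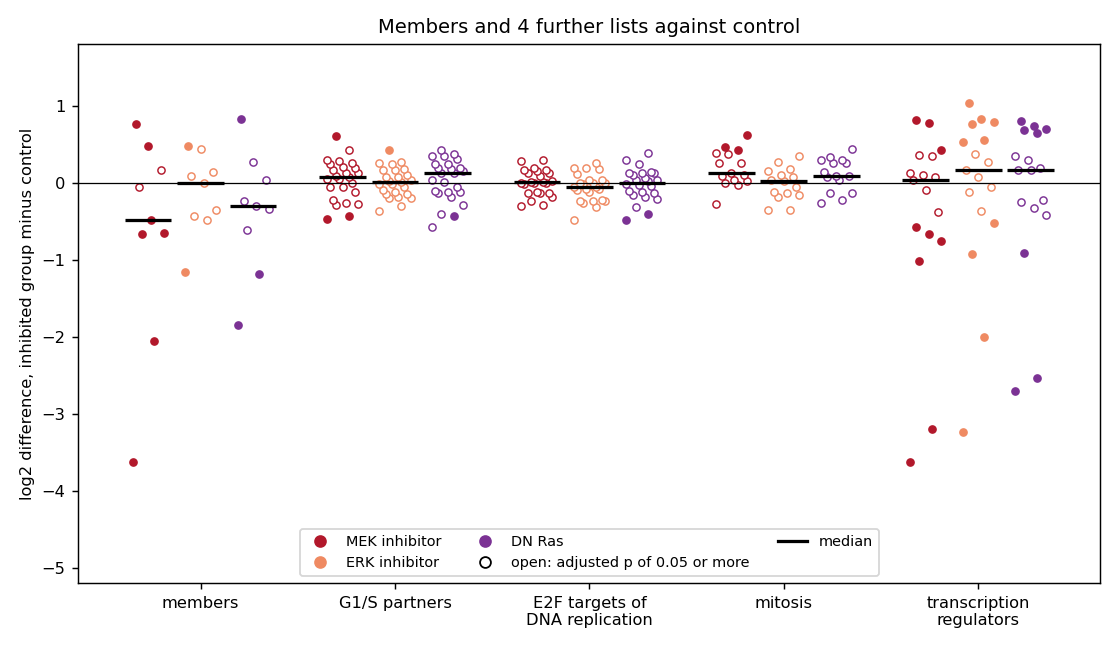
Log2 difference from control of every measured gene in the G1 cyclin, CDK and CDK inhibitor set and in 4 further lists, for the MEK inhibitor, the ERK inhibitor and DN Ras; each point is a gene, filled points have an adjusted p under 0.05 and bars are medians. The 24 E2F targets lie between -0.49 and 0.38, while the 9 members reach from -3.63 to 0.83.

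Factors known to act on the members' promoters were taken as a list of 19, of which 17 were measured. With the MEK inhibitor 3 rose and 6 fell, with the ERK inhibitor 6 rose and 4 fell, and with DN Ras 5 rose and 3 fell, so that 52.9% of the 17 were called with the MEK inhibitor, 58.8% with the ERK inhibitor and 47.1% with DN Ras, against 16%, 11.4% and 12.3% of all genes for the same comparisons. Without DN Ras replicate 3, 4 rose and 3 fell in DN Ras cells. Under median scaling 2 rose and 6 fell with the MEK inhibitor, 6 rose and 3 fell with the ERK inhibitor, and 1 rose and 3 fell with DN Ras. The rises counted include FOXO1 in each group, which entered the tests only through groups where it was higher, so its calls add no support to these shares. EGR1 and FOSL1, which are also in the ERK output list and are among the falls counted here, fell in all 3 groups. EGR1, an immediate early zinc finger factor, had log2 differences of -3.20 with the MEK inhibitor, -3.24 with the ERK inhibitor and -2.70 with DN Ras (adjusted p = 2.43e-09 for the MEK inhibitor, 5.24e-09 for the ERK inhibitor and 3.88e-08 for DN Ras). FOSL1, an AP-1 subunit, was not well above background on any MEK inhibitor array, at least 9.10-fold below controls, and was at -2.0 with the ERK inhibitor (adjusted p = 1.02e-05) and -2.54 with DN Ras (adjusted p = 1.11e-06). JUN, its usual partner in AP-1, rose by 0.42 with the MEK inhibitor (adjusted p = 0.0175), by 0.76 with the ERK inhibitor (adjusted p = 0.00036) and by 0.68 with DN Ras (adjusted p = 0.00102).

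FOXO1, a factor that drives CDKN1B and other inhibitors, was not well above background on any control array and was at least 1.52-fold higher with the MEK inhibitor (adjusted p = 0.000133), 1.32-fold with the ERK inhibitor (0.00301) and 1.56-fold with DN Ras (0.000148). FOXO1 entered the tests only through inhibited groups, where it was higher. Its adjusted p-values are therefore not independent of the filter and give no separate support for the rise. KLF4, which can induce CDKN1A, fell by 1.02 with the MEK inhibitor (adjusted p = 0.000554), rose by 0.79 with the ERK inhibitor (adjusted p = 0.00661) and gave -0.42 with DN Ras (adjusted p = 0.117). KLF4 thus differed between the 2 drugs by -1.81 (MEK inhibitor minus ERK inhibitor, adjusted p = 4.16e-06). TGFB2, the ligand of a pathway that induces CDKN2B, rose by 0.82 with the MEK inhibitor (adjusted p = 0.00341) and by 1.04 with the ERK inhibitor (adjusted p = 0.000905), and gave 0.35 with DN Ras (adjusted p = 0.2). MYC, which represses CDKN1A and CDKN2B, was named after its values were seen: its differences from control were -0.76 with the MEK inhibitor (adjusted p = 0.00695), -0.93 with the ERK inhibitor (adjusted p = 0.0028) and -0.91 with DN Ras (adjusted p = 0.00299). Without DN Ras replicate 3 the DN Ras calls of EGR1, FOSL1, JUN, FOXO1 and MYC held (adjusted p 3.66e-08 to 0.00718), with the same limit for FOXO1. KLF4 and TGFB2 again did not pass without that array (adjusted p = 0.413 and 0.114).

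For each member that passed the F-test, the 3 genes whose log2 values followed it most closely over the 12 arrays were found by Pearson's r, as a description. The arrays fall into 4 groups, so they are not independent points. CCND1 was followed by ITGA2 (r = 0.985), TSPAN1 (0.979) and TNC (0.978), and CCND2 by PODXL (0.979), UBASH3B (0.978) and CCND1 itself (0.977). CCND3 was followed by CDH3 (0.976), TNIP1 (0.963) and SOX4 (0.957), CCNE1 by PRKCH (0.937), MMP9 (0.932) and MGAT5 (0.928), and CDKN1A by CEACAM1 (0.966), KLK10 (0.963) and CCL20 (0.959). CDKN2B was followed by DCUN1D4 (0.978), YTHDC1 (0.967) and the Notch ligand gene JAG2 (0.966), which was higher than control by 0.97 with the MEK inhibitor, 0.49 with the ERK inhibitor and 1.03 with DN Ras.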

How the data were processed

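Per the labels' protocols, biotinylated cRNA from 12 samples was measured on bead arrays from Illumina. Deposited were each probe's average bead intensity before normalization, its number of beads and its bead standard error. The deposited detection p-value of a probe ranks it against its array's negative controls, moving by 1 part in 770. The software GenomeStudio appears in the submitters' processing notes, without a version. A second deposited table holds the authors' processed intensity values, used as an alternative. Member probes had a median of 18 to 26 beads, and 3 arrays a group limit the precision.

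Intensities were corrected and quantile-normalized with limma 3.58.1 (R 4.3.3; neqc, offset 16, background from the detection p-values), which removes a shift shared by most genes. Probes were named from the platform annotation, which can be old: 30112 had 1 symbol, 8 several and 17202 none. Of a gene's kept probes, that with the highest average signal stood for it. Tests used lmFit and eBayes of limma on 4 group means over 12 arrays, with Benjamini-Hochberg adjustment over 10532 genes, checked on simulated data. Intervals are 95% intervals of the moderated fit, and the median moderated SD was 0.169. Where no array of 1 group detected a gene, the fold is a bound, set against the higher of its own value and the lowest detected signal of each dim array.

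Named genes were the members, up to 4 members of each further list with the smallest adjusted p against control, and the 3 nearest by correlation. The members and lists were chosen with earlier results of these data known. Alternatives were median scaling, no background correction, the authors' values, stricter and no filters, the mean of a gene's probes, single probes, 2-group fits, a replicate block and leaving out each array. Counts over the further lists under median scaling and without DN Ras replicate 3, and second probes and list genes without it, were added after seeing the data.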

Additional observations from a re-analysis of the deposited data

How the results depend on the processing

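The calls that passed in every alternative that could be run were CCND1, CCND2, CDKN1A and CDKN2B with the MEK inhibitor against control, CCND1, CCND2 and CDKN2B with DN Ras against control, CCND1, CCND2 and CDKN1A with the MEK inhibitor against the ERK inhibitor, and CCND2 with DN Ras against the MEK inhibitor, apart from the second probe of CCND2 in the last and, without DN Ras replicate 3, that of CDKN2B with DN Ras. Requiring detection on all 12 arrays removes CCND2 by construction. For the ERK inhibitor against control the 2 members called became 0 in the authors' processed values, 0 with no filter on dim probes, 1 with probes detected on all 12 arrays, 1 with every kept probe fitted on its own and 4 with only the 2 groups in the fit. For DN Ras against the MEK inhibitor the 2 called became 1 with probes detected on all 12 arrays and 1 with only the 2 groups. For DN Ras against the ERK inhibitor the 3 called became 5 under median scaling, 1 in the authors' values, 1 with no filter and 0 with only the 2 groups. Leaving out single arrays gave 4 to 7 members for the MEK inhibitor against control, 0 to 4 for the ERK inhibitor, 3 to 5 for DN Ras, 3 to 6 with the MEK set against the ERK inhibitor, 1 to 3 for DN Ras against the MEK inhibitor, 0 to 4 for DN Ras against the ERK inhibitor and 5 to 8 in the F-test. The number of all genes called changed as well. For the ERK inhibitor against control it was 1201 in the main fit and 1088 in the authors' values. It was 706 without ERK inhibitor replicate 3 and 1547 without DN Ras replicate 3, with 0 and 4 members called. For DN Ras against the ERK inhibitor 1145 genes were called in the main fit. There were 1334 under median scaling, 959 in the authors' values and 495 with only the 2 groups. Beyond the design, the cause of these changes was not tested. Of the single-gene results under all alternatives, 1017 kept direction and side of the threshold, 77 no longer passed, 18 newly passed, 16 changed sign with neither value called and 0 reversed. The 1017 include results that passed in neither fit, so they do not measure how often a call held. Median scaling moved the median of all genes to -0.12 with the MEK inhibitor, 0.12 with the ERK inhibitor and -0.10 with DN Ras against control, and to -0.24 for the MEK against the ERK inhibitor; of all genes, 1136 were then called with the MEK inhibitor, 747 with the ERK inhibitor and 718 with DN Ras, where 1682, 1201 and 1291 had been. Leaving out control replicate 1 gave 1035, 634 and 745 for the same comparisons, and for DN Ras against the MEK inhibitor the 463 genes called became 275 under median scaling, 140 without MEK inhibitor replicate 2 and 720 without DN Ras replicate 3. With the replicate number as a block, 7, 2 and 3 members were called for the MEK inhibitor, the ERK inhibitor and DN Ras against control, 5 with the MEK set against the ERK inhibitor, 2 for DN Ras against the MEK inhibitor, 3 for DN Ras against the ERK inhibitor and 6 in the F-test, and no member's call changed. To look for pairing, each gene's group mean was subtracted and the remainders were correlated between arrays of different groups. Same-numbered arrays gave r of -0.185 to 0.331 in 18 pairs, 9 of them above 0.1. Arrays with different numbers gave -0.27 to 0.225. By this measure 3 of 12 arrays correlated best with their own number in all groups, so the numbers were not taken to pair the samples. Among MEK inhibitor, ERK inhibitor and control arrays, however, every same-numbered pair was positive, at 0.034 to 0.331. Pairs with different numbers in those groups reached 0.166. DN Ras replicate 2 gave -0.185, -0.122 and -0.178 with its own number. Whether equal numbers mark the same experiment was thus not settled. Signal over background limits CCND2 with the MEK inhibitor, and CDKN1C throughout.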
